A study of Danio rerio with 20 samples.

Results

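The cells described here were sorted from the caudal hematopoietic tissue (CHT) of zebrafish at 5 dpf and came from pten double mutants (ptena-/-ptenb-/-) and their siblings. They were taken from the 2 plates labelled pten mutant (M1 and M2) and the 2 plates labelled pten sibling (S1 and S2), each with 384 wells. A well was kept as a cell if it held at least 1500 unique molecular identifiers (UMIs) over the genes, and cells with krt4, a keratin of the outer skin layer, at 1000 CPM (counts scaled to a common total) or more were left out. This gave 1175 cells of the 5418 that the same limits leave over the 20 plates of the study, with 351 on S1, 297 on S2, 242 on M1 and 285 on M2. Counts were then summed over the cells of a plate, and the plate served as the replicate. The study made plates with SORT-seq, in which single cells are sorted into wells and their transcripts receive a cell barcode and a UMI, and asked how gain and loss of PI3K signaling affect hematopoietic stem and progenitor cells (HSPCs). Its other plates hold cells of the aorta-gonad-mesonephros (AGM) and, from the CHT at 5 dpf, wild-type control cells (W1 and W2) and cells of wild-type embryos treated with the PI3K inhibitor LY294002 (V1 and V2), of which 996 cells served for a single comparison.

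All embryos carried the reporters tg(kdrl:mCherry/cd41:eGFP), and kdrl-positive, cd41-low living cells were sorted from CHTs that had been pooled and dissociated. Mutants were selected by their phenotype, so the siblings can include heterozygotes, and the study crossed ptena+/-ptenb-/- fish in other experiments, in which case siblings would lack ptenb as well. The cross behind the sorted embryos is not given in the sources used here. The study states that these double mutants show hyperplasia and dysplasia and die at about the age sampled here. The part of their condition in the results was not tested. By the labels S1 was sorted on day 8, M2 on day 9, and S2 and M1 on days 8 and 9, so sort day and genotype were only in part separate. No source says that the plates of a group came from separate pools of embryos, so each p-value measures the spread between plates, which may be technical. The labels also say that not every well of a plate was used, and the plate layout was not analysed here. For both CHT comparisons the study reports fewer cells after its filtering than were kept here. The kept cells may therefore include wells that the study did not use. The part of such wells in the results was not tested.

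PI3K adds a phosphate to membrane phosphoinositides, which recruits and activates the kinase Akt. Akt phosphorylates FoxO transcription factors and keeps them out of the nucleus, and it activates mTOR complex 1, which promotes protein, lipid and nucleotide synthesis and, in mammals, translation of the transcription factor ATF4. ATF4 activates genes for amino acid synthesis, amino acid uptake and tRNA charging, and responds to amino acid shortage and endoplasmic reticulum stress as well. The CHT is the larval niche in which HSPCs that left the dorsal aorta expand and give rise to red cells, myeloid cells and other lineages.

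The 4 plates held between 3924306 and 5349962 UMIs, and the median cell held 12439 UMIs on S1, 12518 on S2, 8566 on M1 and 11852 on M2. Mitochondrially encoded genes took 9.34% and 9.93% of the counts of kept cells in siblings and 9.01% and 8.85% in mutants, and spike-in RNA was 6.82 to 8.35% with the groups mixed. No pair of kept cells on the 8 CHT plates held identical counts, and the other wells were not compared. Cells over the krt4 limit made up 1.40% and 5.41% of the cells on S1 and S2 and 24.6% and 22.1% on M1 and M2, a separation of the groups before any gene was compared. The kept cell nearest to the limit had krt4 at 502 CPM on S1, 736 on S2, 976 on M1 and 989.7 on M2, and the nearest cell left out had 5722, 1180.4, 1041 and 1003 CPM. In the cells that were kept, krt4 was at 27.8 and 64.9 CPM on the sibling plates and 262 and 306 CPM on the mutant plates. It was detected in 31.1% and 52.9% of the kept cells of S1 and S2 and in 85.5% and 97.5% of those of M1 and M2. The summed level of 29 other skin genes, 2 of which were at 0 on all plates, was 127 and 438 CPM in sibling cells and 1381 and 1355 CPM in mutant cells. Muscle RNA (27 genes) did not divide the plates by genotype, with 21218 CPM on S1, 1712 on S2, 2548 on M1 and 15561 on M2. Fibroblast and matrix RNA (23 genes) was likewise mixed, at 472, 5334, 1469 and 2619 CPM. A bulk sum cannot tell fewer cells of a type from less RNA per cell, so results on sums were also read within clusters and at a fixed mix of clusters.

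In all kept cells, edgeR's quasi-likelihood test with Benjamini-Hochberg adjustment called 274 of 12623 genes higher in mutants (2.17%) and 74 lower (0.586%) at an adjusted p under 0.05. The median log2 fold change over all genes was -0.01. For reference, the mutant plates both lay above the sibling plates for 29.6% of all genes tested and both below them for 23.6%. With sort day as a term beside genotype (8 for S1, 8.5 for S2 and M1, 9 for M2), 3 of the genes called higher stayed called (fn1b, FSTL3 and CR855311.1). In this fit edgeR made 1 lower call, of the myosin light chain gene myl10, which was not called without the term, and 1076 genes had an unadjusted p under 0.05. The fit leaves 1 residual degree of freedom and takes the midpoint of the days for S2 and M1, whose share of cells per day was not analysed here. The calls without a day term include any effect of the sort day. The median log2 fold changes with the term were 0.74 for the amino acid response list and 0.83 for genes of aminoacyl-tRNA synthetases. The counts also moved with the plates and cells used: 956 higher and 406 lower without M1, 131 higher without S1, and 6 higher (of 10108 tested, 1181 at an unadjusted p under 0.05) when every cell with krt4 at 100 CPM or more was removed, which left 53 and 22 mutant cells. The gene of the cell limit, krt4, is among the 274 and is not read as a result. Part of the list rests on few cells, since for 42 of the 274 genes called higher the 5 richest cells held at least 50% of the UMIs on both mutant plates.

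Of the 12 genes with the largest rises, 3 encode an enzyme or a transporter of amino acid metabolism (phgdh, slc1a4 and slc7a10a). The gene phgdh, which encodes the first enzyme of serine synthesis, was at 8.37 and 10.8 CPM on the sibling plates and 143 and 159.8 CPM on the mutant plates (log2 fold change 3.93, SE 0.20, adjusted p = 0.00153). The serine and alanine transporter gene slc1a4 went from 11.4 and 15.1 to 163 and 166 CPM (log2 fold change 3.58, SE 0.20, adjusted p = 0.00195). A second transporter of this kind, slc7a10a, had 1.52 and 2.88 CPM in siblings and 41.8 and 34.6 CPM in mutants (log2 fold change 4.08, SE 0.33, adjusted p = 0.00818). For each of these the mutant plates lay close together and far above both sibling plates, a gap that follows from the choice of the largest rises. Both genes for the stress-responsive transcription factor ATF5 rose. The level of atf5a was 14.5 and 10.6 against 119 and 216 CPM (log2 fold change 3.68, SE 0.33, adjusted p = 0.0106) and that of atf5b 2.28 and 2.40 against 34.6 and 45.8 CPM (log2 fold change 4.04, SE 0.27, adjusted p = 0.00375). The phosphatase gene MDP1 had 9.70 and 7.69 against 135 and 151 CPM (log2 fold change 3.98, SE 0.19, adjusted p = 0.00136).

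Other large rises had another distribution over cells. Fibronectin 1b (fn1b), an extracellular matrix protein, was at 5.90 and 8.65 CPM in siblings and 339.9 and 398 CPM in mutants (log2 fold change 5.62, SE 0.25, adjusted p = 0.00136), but 5 cells held 81.3% and 72.6% of its UMIs on M1 and M2. The gene for complement component C4A had 0.190 and 1.44 CPM in siblings and 58.3 and 24.1 CPM in mutants (log2 fold change 5.64, SE 0.73, adjusted p = 0.0191). The leptin gene lepb had 0.190 and 3.85 against 74.8 and 82.2 CPM (log2 fold change 5.32, SE 0.67, adjusted p = 0.0190). These genes, and also FSTL3, an antagonist of activin, and CR855311.1, were carried by few cells, with over 50% of the UMIs in 5 cells on each mutant plate. The level of FSTL3 was 2.47 and 0.481 against 96.9 and 31.5 CPM (log2 fold change 5.26, SE 0.75, adjusted p = 0.0242) and that of CR855311.1 3.42 and 1.44 against 157 and 39.4 CPM (log2 fold change 5.21, SE 0.78, adjusted p = 0.0272). The annexin anxa1a (9.89 and 8.41 against 120.3 and 127 CPM, log2 fold change 3.69, SE 0.18, adjusted p = 0.00136) was spread over many cells, with 11.4% and 13.6% of its UMIs in the 5 richest, and is on the skin list. Its level in kept mutant cells was 2.88% and 2.74% of that in the krt4-high cells of the same plates.

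**Figure D1:**
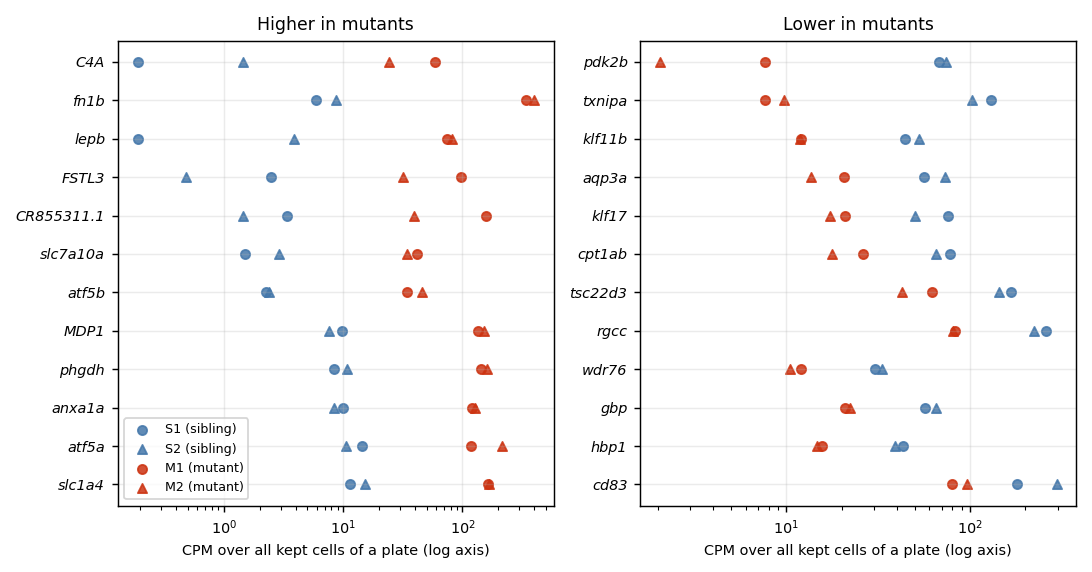
Level of the 12 genes with the largest rise and the 12 with the largest fall, on a log axis of CPM summed over all kept cells of a plate. They were taken from called genes with a mean of at least 20 CPM whose mutant and sibling plates do not overlap. Blue symbols are sibling plates, red symbols are mutant plates, circles are S1 and M1 and triangles S2 and M2. The gap between the groups in every row follows from this choice, for example phgdh at 8.37 and 10.8 against 143 and 159.8 CPM.

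Among genes that fell, 4 are on the list of FoxO-responsive genes, txnipa among them, and 7 genes of that list rose, as given below. The largest falls were those of pdk2b and txnipa. The kinase gene pdk2b, whose product inhibits pyruvate dehydrogenase, was at 67.9 and 73.8 CPM in siblings and 7.64 and 2.05 CPM in mutants (log2 fold change -4.04, SE 0.46, adjusted p = 0.0173). The gene txnipa, for an arrestin-like protein that limits glucose uptake in mammals, was at 130.1 and 102 CPM against 7.64 and 9.73 CPM (log2 fold change -3.77, SE 0.22, adjusted p = 0.00224). The groups lay far apart for both genes, which follows from the choice of the largest falls. A second kinase of pyruvate dehydrogenase, pdk4, had 52.9 and 53.6 against 23.3 and 23.8 CPM (log2 fold change -1.23, SE 0.16, adjusted p = 0.0197). The gene cpt1ab, whose product admits fatty acids to mitochondria for oxidation, had 78.0 and 65.4 against 26.1 and 17.7 CPM (log2 fold change -1.78, SE 0.23, adjusted p = 0.0192). 

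Several transcriptional regulators fell too. The Krüppel-like factor genes klf11b (44.3 and 52.6 against 12.1 and 11.8 CPM, log2 fold change -2.08, SE 0.20, adjusted p = 0.0118) and klf17 (75.9 and 49.998 against 20.9 and 17.2 CPM, log2 fold change -1.79, SE 0.25, adjusted p = 0.0225) were both lower. The glucocorticoid-responsive gene tsc22d3 had 167 and 144 against 62.3 and 42.8 CPM (log2 fold change -1.63, SE 0.22, adjusted p = 0.0197). The cell cycle regulator gene rgcc had 259 and 223 against 83.3 and 80.9 CPM (log2 fold change -1.61, SE 0.15, adjusted p = 0.0118). This fall is given for the sums only, and rgcc is a leading gene of cluster 1, described below. That cluster held 50.1% and 52.2% of cells on S1 and S2 and 36.4% and 22.5% on M1 and M2. The mutant plates lay close together for rgcc and for the transcriptional repressor gene hbp1, at 43.2 and 39.2 against 15.7 and 14.6 CPM (log2 fold change -1.5, SE 0.18, adjusted p = 0.0190). The remaining genes with the largest falls were wdr76, gbp, cd83 and aqp3a, with log2 fold changes of -1.55, -1.55, -1.5 and -1.99 and adjusted p from 0.0180 to 0.0404. For aqp3a the change was 1.21, so higher in mutants, when the krt4-high cells were kept.

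As a list, FoxO-responsive genes did not move one way. Of 28 tested, 4 fell (txnipa, irs2a, sesn1 and arrdc2) and 7 rose (sesn2, trib3, bnip3lb, klf2b, pck1, cdkn1a and gadd45aa), with a median log2 fold change of -0.17 against -0.01 over all genes. The insulin receptor substrate gene irs2a had 15.6 and 13.5 CPM in siblings and 2.41 and 3.07 CPM in mutants (log2 fold change -2.42, SE 0.34, adjusted p = 0.0225). The alpha-arrestin gene arrdc2 had 83.0 and 77.9 against 45.9 and 41.7 CPM (log2 fold change -0.93, SE 0.16, adjusted p = 0.0382). The sestrin genes, which encode inhibitors of mTOR complex 1, went opposite ways. The level of sesn1 was 14.8 and 18.5 against 4.83 and 3.33 CPM (log2 fold change -2.11, SE 0.34, adjusted p = 0.0335), and that of sesn2, also a target of ATF4, was 5.52 and 8.41 against 51.9 and 64.0 CPM (log2 fold change 3.02, SE 0.26, adjusted p = 0.00912). Of the risers, trib3 stands on the amino acid response list too. Without S1 the list gave 2 higher and 2 lower. Of 39 tested genes of PI3K, Akt and mTOR signaling itself, 1 was called, and the median was 0.01. This gene, pik3r3b, encodes a regulatory subunit of PI3K and had 10.5 and 11.1 CPM in siblings and 42.2 and 67.1 CPM in mutants (log2 fold change 2.30, SE 0.26, adjusted p = 0.0175).

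Many genes of the amino acid response were higher in mutants. Of 41 tested targets of ATF4, 16 rose and the other members did not pass the test, with a median log2 fold change of 0.99. The count was 13 to 23 higher with any 1 plate left out (with 1 lower without M1), and 16 higher and 1 lower at a fixed mix of clusters. Asparagine synthetase (asns) was at 43.4 and 43.5 CPM in siblings and 116 and 139 CPM in mutants (log2 fold change 1.5, SE 0.16, adjusted p = 0.0157). The glutathione-degrading enzyme gene chac1 was at 147 and 207 against 505 and 527 CPM (log2 fold change 1.48, SE 0.21, adjusted p = 0.0231). The gene for trib3, a pseudokinase that binds Akt in mammals, was at 22.8 and 24 against 55.5 and 68.1 CPM (log2 fold change 1.35, SE 0.18, adjusted p = 0.0197). The stress factor gene atf3 had 76.7 and 57.7 against 139.6 and 171 CPM (log2 fold change 1.16, SE 0.19, adjusted p = 0.0352). The gene bcat1, for an aminotransferase for branched-chain amino acids, had 1.90 and 3.37 against 28.2 and 25.6 CPM (log2 fold change 3.31, SE 0.34, adjusted p = 0.0135). All of these groups were apart, with both mutant plates above both sibling plates, which follows in large part from naming called genes.

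Within serine, glycine and one-carbon metabolism, 7 of 31 tested genes rose and the median was 0.12, and the called genes belong to a few of its steps. After phgdh, the serine aminotransferase gene psat1 was at 6.09 and 8.41 CPM in siblings and 76.0 and 54.5 CPM in mutants (log2 fold change 3.12, SE 0.27, adjusted p = 0.00912). Glycine N-methyltransferase (gnmt), which uses methyl groups from the methionine cycle, had 14.7 and 18.7 against 159 and 135 CPM (log2 fold change 3.08, SE 0.21, adjusted p = 0.00375). The enzymes that turn homocysteine into cysteine rose, cbsb from 16 and 18.5 to 125 and 118 CPM (log2 fold change 2.76, SE 0.18, adjusted p = 0.00338). In the next step, cth rose from 24.5 and 30.0 to 99.3 and 76.6 CPM (log2 fold change 1.63, SE 0.21, adjusted p = 0.0191). Of the mitochondrial folate enzymes, mthfd1l had 4.76 and 4.33 against 24.9 and 35.1 CPM (log2 fold change 2.67, SE 0.28, adjusted p = 0.0149), and aldh1l2 had 70.6 and 55.8 against 186 and 208 CPM (log2 fold change 1.59, SE 0.17, adjusted p = 0.0157). With any 1 plate left out the list still gave 7 or 8 genes higher, and 4 fell without M1.

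Of 18 tested genes for aminoacyl-tRNA synthetases, the enzymes that join amino acids to their tRNAs, 10 rose and the median log2 fold change was 0.98. The summed level of the list was 2738 and 2778 CPM in siblings and 5418 and 6430.0 CPM in mutants. The gene for the asparagine enzyme, nars, was at 395 and 411 CPM in siblings and 1165 and 1489 CPM in mutants (log2 fold change 1.67, SE 0.18, adjusted p = 0.0157). The gene for the alanine enzyme, aars, was at 317 and 309.8 against 742 and 972 CPM (log2 fold change 1.40, SE 0.18, adjusted p = 0.0191). The others were mars, tars, cars, yars, iars, eprs, farsb and vars, with log2 fold changes between 0.96 and 1.40 and adjusted p between 0.0190 and 0.0383. The count depended on the sibling plates, with 2 genes higher without S1 and 6 without S2, while the medians stayed at 0.94 and 0.96. Of 23 tested amino acid transporters, 4 rose, slc1a4 and slc7a10a among them. The cationic amino acid transporter gene slc7a3a had 91.7 and 81.0 against 284 and 234 CPM (log2 fold change 1.53, SE 0.17, adjusted p = 0.0160). The glutamine transporter gene slc38a5a had 153 and 129.8 against 266 and 312 CPM (log2 fold change 0.98, SE 0.16, adjusted p = 0.0366). Without M1, 7 transporters rose.

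Since skin RNA moved with genotype, the level of each called gene in kept mutant cells was set beside its level in the krt4-high cells of the same plate. The 3 called skin genes other than krt4 were at 2.29 to 4.48% of their level there. The 16 called amino acid response genes were at 10.9 to 383% with a median of 66.6%, and the 10 called synthetases at 69.9 to 342%. Single genes were 63.8% and 58.3% for phgdh, 145% and 172% for slc1a4 and 122% and 150.4% for nars on M1 and M2. The krt4-high cells themselves differed between groups, with only 5 and 17 such cells on S1 and S2. Their summed globins were at 936 and 598 CPM on S1 and S2 and 6836 and 7007 CPM on M1 and M2. Their summed synthetase genes were at 2011 and 1707 CPM on S1 and S2 and 4651 and 4730 CPM on M1 and M2. The part of this in the ratios was not tested. Over all genes called higher, 127 of 274 (46.4%) were higher in krt4-high than in kept cells on both mutant plates, against 21.8% of all genes tested and 17.6% of those called lower. With the limit lowered to 100 CPM of krt4, 4 of the 16 amino acid response genes were still called and the median of the list was 1.18. None of the 10 synthetase genes was called at this limit, with a median of 1.00, and none of the called genes of the FoxO, glycolysis, heme, globin and chaperone lists. The medians of these 5 lists were then 0.12, 0.60, 0.13, 0.88 and 0.43, against -0.17, 0.44, 0.62, 1.01 and 0.37 in all kept cells. Whether free skin RNA or doublets with skin cells contribute to the remaining genes was not tested.

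**Figure D2:**
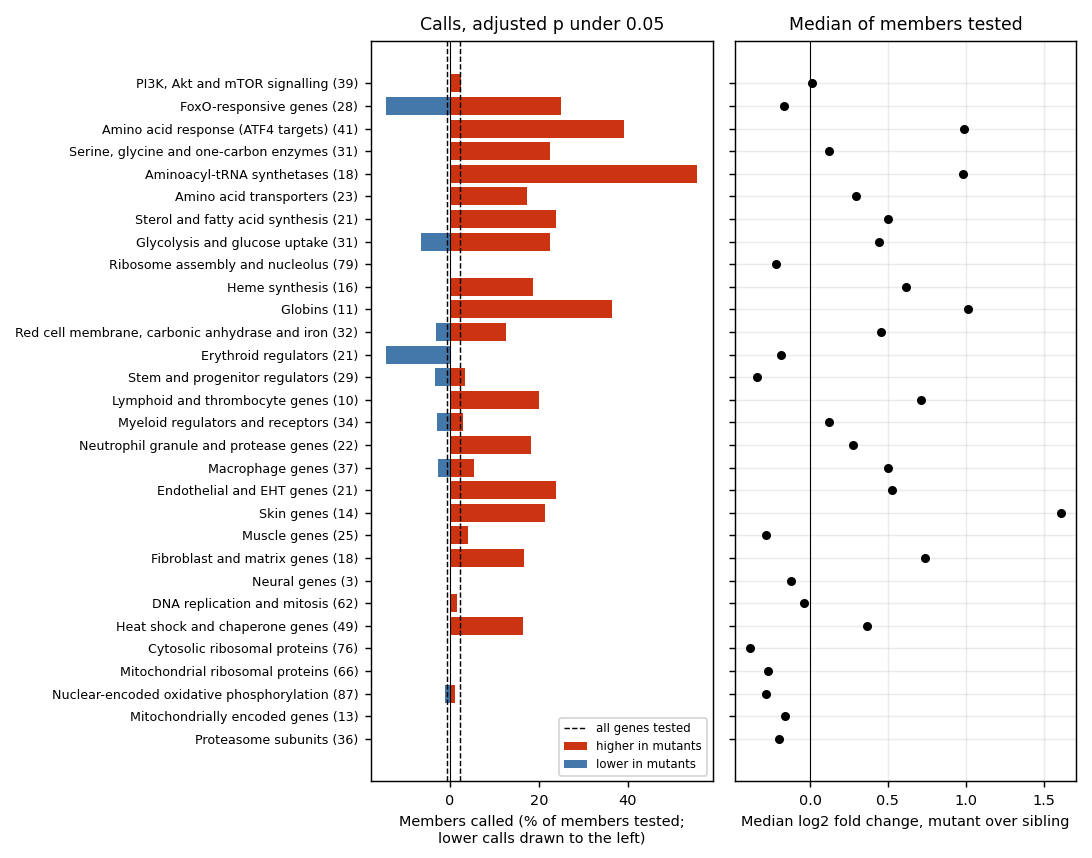
Gene lists in all kept cells, mutant against sibling, with the number of members tested in parentheses. Left, percentage of members called higher (red) or lower (blue, drawn to the left), with dashed lines at the 2.17% and 0.586% of all genes; right, median log2 fold change of the members, which was 0.99 for the amino acid response and 1.61 for skin genes.

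Genes of sugar and lipid metabolism changed in part. Of 31 tested genes of glycolysis and glucose uptake, 7 rose and 2 fell, both of the latter the pyruvate dehydrogenase kinases named above. Aldolase C (aldocb) was at 47.8 and 51.9 CPM in siblings and 174 and 246 CPM in mutants (log2 fold change 2.02, SE 0.21, adjusted p = 0.0135). The phosphofructokinase gene pfkpa was at 7.04 and 9.37 against 31.8 and 45.6 CPM (log2 fold change 2.2, SE 0.27, adjusted p = 0.0190). Enolase 1 (eno1a) was at 84.7 and 79.1 against 189 and 238 CPM (log2 fold change 1.33, SE 0.17, adjusted p = 0.0190). With these 3 enzymes, slc2a1b, a glucose transporter of the GLUT1 kind, rose from 11.2 and 7.21 to 33.8 and 26.9 CPM (log2 fold change 1.65, SE 0.28, adjusted p = 0.0366). The other risers were gpia, gapdhs and eno3, with log2 fold changes of 0.99, 1.03 and 0.82. The count was 12 higher without M1 and 3 without S1. Of 21 tested genes of sterol and fatty acid synthesis, 5 rose, among them the genes for both SREBP regulators of this pathway. The level of srebf1 was 27.2 and 31.0 against 62.7 and 78.3 CPM (log2 fold change 1.23, SE 0.19, adjusted p = 0.0287) and that of srebf2 29.9 and 20.9 against 53.1 and 64.3 CPM (log2 fold change 1.15, SE 0.22, adjusted p = 0.0489). The rate-limiting enzyme gene hmgcra was low, at 0.761 and 1.44 against 11.7 and 7.68 CPM (log2 fold change 3.06, SE 0.53, adjusted p = 0.0384). All 5 lost their call without S1. Their level in kept mutant cells was 10.9 to 98.3% of that in krt4-high cells, with a median of 19.4%, and the part of skin RNA in it was not tested.

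Of 49 tested heat shock and chaperone genes, 8 rose. Cytosolic chaperones were among them, with hsp90aa1.2 at 598 and 539.6 against 1722 and 1802 CPM (log2 fold change 1.58, SE 0.15, adjusted p = 0.0119). The level of hsp70.3 was 238 and 166 against 733 and 639 CPM (log2 fold change 1.72, SE 0.21, adjusted p = 0.0190) and that of hsp70l 52.1 and 43.5 against 204 and 291 CPM (log2 fold change 2.32, SE 0.21, adjusted p = 0.0118). Counts of these genes may be split between near-identical copies. Genes of the endoplasmic reticulum rose as well, namely hyou1, pdia4 and xbp1, a regulator of the unfolded protein response, at 113 and 188 against 440.4 and 425 CPM (log2 fold change 1.46, SE 0.26, adjusted p = 0.0427). This list gave 14 genes without M1 and 3 without S1.

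Of 11 tested globins, the oxygen carriers of red cells, 4 rose in the sums, with a median of 1.01, which was 0.32 at a fixed mix of clusters, where 3 rose. The alpha globin gene hbae3 was at 3931 and 3592 CPM in siblings and 10821 and 19514 CPM in mutants (log2 fold change 1.96, SE 0.28, adjusted p = 0.0240). The beta globin gene hbbe1.3 was at 2382 and 1997 against 6036 and 8733 CPM (log2 fold change 1.70, SE 0.22, adjusted p = 0.0190). The globin genes share sequence, so counts may be split between copies. Of 16 tested heme synthesis genes 3 rose. The gene for the first enzyme of the pathway in red cells, alas2, was at 337 and 303 against 1199 and 2187 CPM (log2 fold change 2.35, SE 0.29, adjusted p = 0.0190). The second form of this enzyme, alas1, was at 78.2 and 109.6 against 196 and 264 CPM (log2 fold change 1.24, SE 0.23, adjusted p = 0.0489). The mitochondrial transporter gene abcb10 was at 74.8 and 73.8 against 140.4 and 174 CPM (log2 fold change 1.03, SE 0.16, adjusted p = 0.0322). Among genes of the red cell membrane, carbonic anhydrase and iron, 4 of 32 tested rose and 1, aqp3a, fell. Carbonic anhydrase (cahz) went from 716 and 662 to 2101 and 3349 CPM (log2 fold change 1.93, SE 0.24, adjusted p = 0.0190). The gene FAM132B, for erythroferrone, a hormone of red cell precursors that lowers hepcidin in mammals, rose from 30.6 and 35.6 to 268 and 451 CPM (log2 fold change 3.39, SE 0.28, adjusted p = 0.00818). For most of these M2 was the higher of the mutant plates. Without M1 the counts were 8 globins and 8 heme genes, and without S1 they were 2 and 1.

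Of 21 tested regulators of red cell development, 3 fell and the rest did not pass, with a median of -0.19. The erythropoietin receptor gene epor was at 279 and 242 CPM in siblings and 125 and 112 CPM in mutants (log2 fold change -1.18, SE 0.16, adjusted p = 0.0197). The gene kita, for the receptor of stem cell factor, was at 197 and 156 against 83.7 and 64.5 CPM (log2 fold change -1.30, SE 0.20, adjusted p = 0.0279). The third was klf17. The lists of stem and progenitor regulators gave 1 of 29 higher, the immediate early gene egr1 (36.5 and 35.6 against 80.4 and 115 CPM, log2 fold change 1.39, SE 0.21, adjusted p = 0.0272), and 1 lower, kita, with a median of -0.34. Without M1 this list gave 12 lower and 2 higher. At a fixed mix of clusters the log2 fold changes were -1.03 for epor (limma adjusted p = 0.00975), -0.77 for kita (adjusted p = 0.0650), 1.13 for hbae3 (adjusted p = 0.0234) and 1.69 for alas2 (adjusted p = 0.00404). The clusters of this mix, described below, were made with the called genes included, and kita, hbae3 and alas2 were among their leading genes. Whether these values would hold with clusters made without the called genes was not tested.

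The cells were grouped in 5 clusters. Cluster 1 (483 cells) had kita, crip2, rgcc, blf and myb among its leading genes and raised 13 of 16 markers of HSPCs and all 8 of thrombocyte and erythrocyte progenitors, by a mean of 0.86 and 0.87 on the log2 scale over the other clusters. Cluster 2 raised the same 8 progenitor markers by more, 2.08, and cluster 3 raised 12 of the HSPC markers by 0.20. Cluster 2 (292 cells) had hbae3, alas2 and cahz among its leading genes, raised all 6 erythrocyte markers and is called erythrocyte-like. Clusters 3 (205 cells, led by protease genes of the si:dkey-21e2 group and stc1l) and 4 (154 cells, led by npsn, mmp13a and mmp9) raised myeloid markers, and cluster 4 all 10 neutrophil markers. They were joined, since their border moved between clusterings, a choice made after seeing the alternatives. Cluster 5 (41 cells) had muscle and matrix genes and was left unnamed.

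Genes that define clusters 1 and 2 differed between groups, so the shares of cells were taken from a clustering without the 348 called genes. The clusters were still named with all markers, called genes included. Of the 6 erythrocyte markers 3 were called higher (alas2, cahz and hbae3) and 1 lower (epor). A first class took the clusters led by markers of HSPCs or of thrombocyte and erythrocyte progenitors, which were not told apart. It then held 44.2% of cells on S1, 42.4% on S2, 29.8% on M1 and 17.9% on M2. The class with erythrocyte markers held 21.9% and 21.9% of cells in siblings and 31.0% and 50.2% in mutants. The myeloid class held 33.6% and 34.7% in siblings and 38.8% and 29.8% in mutants, where the mutant plates lie on both sides of the sibling plates. The mean differences, mutant minus sibling, were -19.5, 18.7 and 0.18 percentage points, and with the called genes in the clustering they were -21.8, 21.7 and -0.70. The first 2 separated the groups, but an exact permutation test of 2 plates against 2 cannot go below p = 0.333 (two-sided), the value it gave for both, and it gave p = 1 for the third. M1 and M2 differed from each other by more than the siblings did, and their 95% Wilson intervals, which cover counting error only, did not overlap for the erythrocyte class (25.5 to 37.1% and 44.4 to 55.9%).

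**Figure D3:**
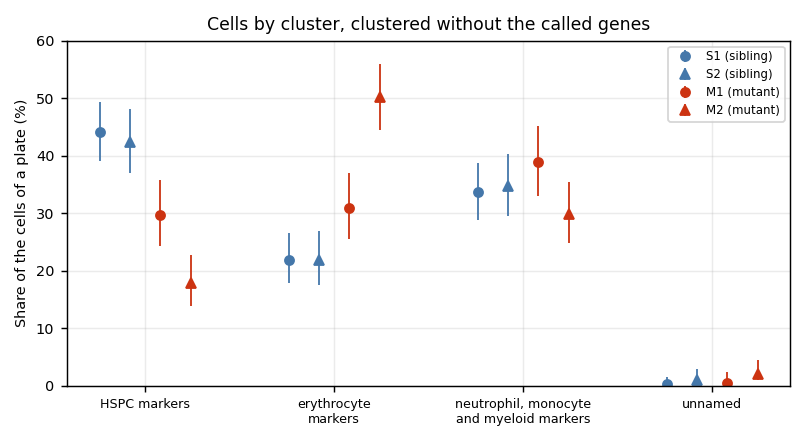
Share of the cells of a plate in each class, in percent, from a clustering without the called genes; points are plates (blue siblings, red mutants) and bars are 95% Wilson intervals. The class labelled HSPC markers took clusters led by markers of HSPCs or of thrombocyte and erythrocyte progenitors. It was at 44.2% and 42.4% in siblings and 29.8% and 17.9% in mutants, and the myeloid classes overlapped.

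Within the clusters made with the called genes included, counts were summed per plate and tested in the same way. Whether the results would hold in clusters made without these genes was not tested. In cluster 1, 165 of 9209 genes were higher in mutants (1.79%) and 73 lower (0.793%), 2.58% in either direction. These counts fell to 15 and 4 in cells with at least 3000 UMIs and to 6 and 0 (283 at an unadjusted p under 0.05; DESeq2 was not run on these cells) with cells thinned to 1500 UMIs, where 2343 genes were tested. In cluster 2, 576 of 6520 were higher (8.83%) and 319 lower (4.89%), together 13.7%. In clusters 3 and 4, 40 of 7687 were higher (0.52%) and 13 lower (0.169%), together 0.689%. The count in cluster 2 rested on plate M2: without it the test made 0 calls in either direction (963 genes had an unadjusted p under 0.05; no other tool was run on these 3 plates). That of clusters 3 and 4 ranged from 7 higher and 4 lower without S1, and 11 and 8 without S2, to 636 and 224 without M1 and 241 and 234 without M2. Cells placed in cluster 2 were also not alike between groups, since myb was at 763 and 621 CPM there in siblings and 192 and 179 CPM in mutants (log2 fold change -1.88, SE 0.21, adjusted p = 8.13e-05), and its part in the calls of that cluster was not tested. How many sibling cells count as erythrocyte-like depends on the method, as Leiden clustering placed a mean of 0.337% of sibling cells and 32.1% of mutant cells in such a class.

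Several amino acid genes rose in all 3 of these classes. In cluster 1, phgdh was at 1.95 and 3.12 CPM in siblings and 56.4 and 129 CPM in mutants (log2 fold change 5.15, SE 0.44, adjusted p = 0.000324). In cluster 2 it was at 4.01 and 0 CPM against 166 and 148 CPM (adjusted p = 1.48e-05, with too few sibling UMIs for a fold), and in clusters 3 and 4 at 33.7 and 28.7 CPM against 254 and 237 CPM (log2 fold change 2.87, SE 0.29, adjusted p = 0.0208). The same held for slc1a4, with log2 fold changes of 2.89 (SE 0.21, adjusted p = 0.000132) in cluster 1, 5.48 (SE 0.31, adjusted p = 1.23e-06) in cluster 2 and 3.60 (SE 0.36, adjusted p = 0.0208) in clusters 3 and 4. In all, 22 genes were called higher in the 3 classes. Of the genes tested, 1.79% were called higher in cluster 1, 8.83% in cluster 2 and 0.52% in clusters 3 and 4. The classes hold cells of the same plates, so a call shared by them is no independent check. Among the 22 were psat1, cbsb, gnmt, aldh1l2, atf5a, slc7a10a and ccng1, and the synthetase genes nars, mars, cars and eprs. The genes anxa1a, krt18 and krt4 were also among them, the last being the gene of the cell limit. The list of ATF4 targets gave 17 of 33 higher in cluster 1, 24 of 31 in cluster 2 and 7 of 34 in clusters 3 and 4 (with 1, 2 and 0 lower), with medians of 1.02, 2.07 and 0.39. Not every gene followed, since chac1 was at 523 and 608 CPM in siblings and 605 and 556 CPM in mutants in clusters 3 and 4 (log2 fold change -0.07, SE 0.24, adjusted p = 0.937), against 1.99 (SE 0.17, adjusted p = 0.000324) in cluster 1 and 3.08 (SE 0.27, adjusted p = 1.94e-05) in cluster 2. The differences between classes were not tested.

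The gene txnipa fell in clusters 1 and 2 and did not pass in clusters 3 and 4. In cluster 1, it was at 158 and 126 CPM in siblings and 8.19 and 9.67 CPM in mutants (log2 fold change -4.01, SE 0.22, adjusted p = 2.8e-05), and pdk2b was at 75.9 and 74.1 against 4.55 and 1.61 CPM (log2 fold change -4.65, SE 0.34, adjusted p = 0.000132). In cluster 2, txnipa was at 169 and 145 against 8.20 and 11.0 CPM (log2 fold change -3.93, SE 0.29, adjusted p = 1.48e-05). In clusters 3 and 4 its level was low in siblings already, at 15.7 and 18.8 CPM, against 5.50 and 5.96 CPM in mutants (log2 fold change -1.67, SE 0.54, adjusted p = 0.248). The gene cpt1ab was the only one called lower in the 3 classes, with log2 fold changes of -1.69 (SE 0.23, adjusted p = 0.00648), -1.55 (SE 0.32, adjusted p = 0.00724) and -2.78 (SE 0.37, adjusted p = 0.0288). Isocitrate dehydrogenase 1 (idh1), which makes NADPH in the cytosol, fell in cluster 1 from 47.0 and 45.3 to 7.28 and 14.5 CPM (log2 fold change -2.09, SE 0.28, adjusted p = 0.00552). The actin regulator gene cfl1l rose there from 4.22 and 5.46 to 48.2 and 57.2 CPM (log2 fold change 3.41, SE 0.28, adjusted p = 0.000257). In cluster 2, epor was at 415 and 326 against 93.5 and 148 CPM (log2 fold change -1.57, SE 0.25, adjusted p = 0.00118). The calpain gene capn1b was at 57.2 and 39.6 against 6.56 and 4.80 CPM (log2 fold change -3.14, SE 0.44, adjusted p = 0.000463). In this cluster 35 of 74 cytosolic ribosomal protein genes fell, against 4.89% of all genes tested there. The calls of this cluster rested on plate M2, as given above. The part of the difference in myb between its sibling and mutant cells in this fall was not tested.

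**Figure D4:**
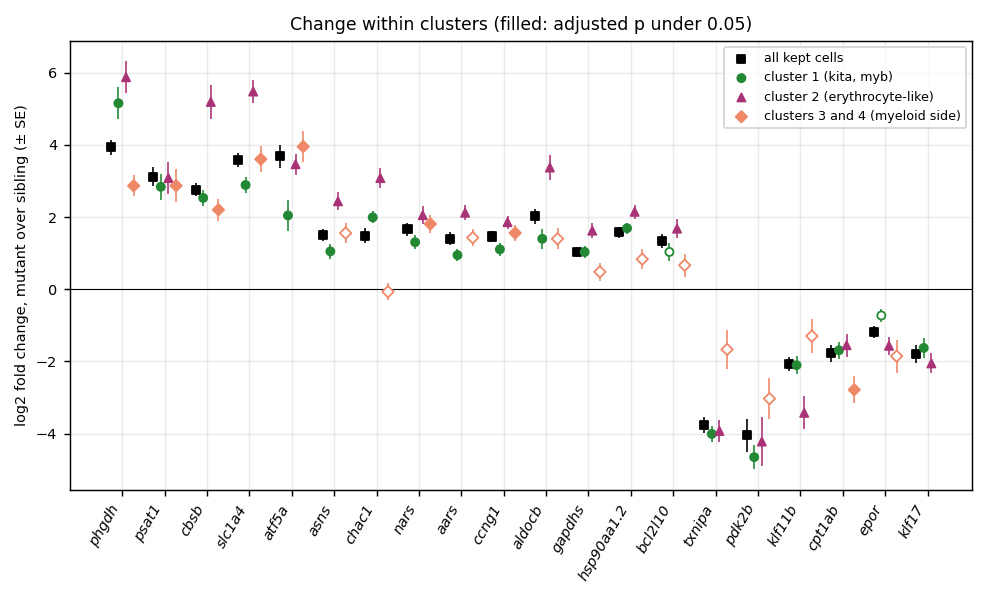
Log2 fold change, mutant over sibling, with its standard error, for 20 called genes over all kept cells (squares), in cluster 1 (circles), cluster 2 (triangles) and clusters 3 and 4 (diamonds); filled symbols passed an adjusted p under 0.05 and missing symbols were not tested. The genes phgdh, psat1 and slc1a4 were higher in all classes, whereas chac1 in clusters 3 and 4 stood at -0.07.

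In clusters 3 and 4, the 5 called genes with the largest rises at a mean of at least 20 CPM were ptx3a, pcolcea, fn1b, C4A and nav3, and over all kept cells the 5 richest held 50.9% or more of the UMIs of each on both mutant plates. In clusters 3 and 4, fn1b was at 8.99 and 19.9 CPM in siblings and 925 and 731 CPM in mutants (log2 fold change 5.72, SE 0.42, adjusted p = 0.00765). The gene ptx3a, for a pentraxin of innate immunity, was at 0 and 1.1 against 75.6 and 34.7 CPM (adjusted p = 0.0321), and pcolcea, which aids collagen processing, was at 0 and 1.1 against 50.9 and 54.6 CPM (adjusted p = 0.0232). Falls were those of il13, a cytokine of type 2 immunity, from 46.1 and 34.2 to 2.75 and 1.99 CPM (log2 fold change -4.14, SE 0.56, adjusted p = 0.0288), and of bscl2l, a relative of the seipin gene of lipid droplets, from 130.4 and 89.3 to 6.87 and 0 CPM (adjusted p = 0.0329). The aquaporin gene aqp3a fell from 298 and 185 to 42.6 and 12.9 CPM (log2 fold change -3.26, SE 0.53, adjusted p = 0.0470). The nuclear receptor gene nr4a1 fell there from 459.7 and 456 to 103 and 147 CPM (log2 fold change -1.98, SE 0.29, adjusted p = 0.0321). The gene cd83, for a surface protein of activated leukocytes, fell from 618 and 951 to 83.8 and 174 CPM (log2 fold change -2.71, SE 0.40, adjusted p = 0.0355). Of the 10 genes with the largest changes there, 5 each way, 8 lost their call without S1, 6 without S2 and all 10 at a mean of at least 20 CPM, and il13, bscl2l and aqp3a are among those lost without S1 and without S2. Over all cells, 1 of 34 myeloid regulators rose and 1, nr4a1, fell. The riser was spi1a, for a factor of the PU.1 kind, with 29.5 and 35.6 against 70.8 and 72.7 CPM (log2 fold change 1.09, SE 0.18, adjusted p = 0.0336). Of 37 macrophage genes, 2 rose (ctsk and ctss2.1), and the 5 richest cells held 60.2% and 65.2% of the UMIs of ctsk on M1 and M2 and 65.7% and 53.5% of those of ctss2.1. The gene cd74b, for an invariant chain of antigen presentation, fell from 25.1 and 25.2 to 6.44 and 4.86 CPM (log2 fold change -2.23, SE 0.26, adjusted p = 0.0185), and 5 cells held 87.5% and 78.9% of its UMIs on the mutant plates.

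Some genes of skin and of endothelium were called higher in mutants. Of 29 skin genes other than krt4, 14 were abundant enough to test and 3 of them rose (anxa1a, cldn1 and dspa). Of 21 endothelial and endothelial-to-hematopoietic transition genes 5 rose, and of 18 fibroblast and matrix genes 3 rose. The level of these 3 fibroblast and matrix genes in kept mutant cells was 4.57 to 7030% of that in krt4-high cells, with a median of 5.52%. They were thus not all lower in kept cells. In the endothelial list 2 keratin genes that skin makes as well led. The level of krt18 was 15.6 and 8.89 against 144 and 139 CPM (log2 fold change 3.46, SE 0.26, adjusted p = 0.00720) and that of krt8 105 and 86.5 against 277 and 273 CPM (log2 fold change 1.47, SE 0.16, adjusted p = 0.0157). The level of krt18 in kept mutant cells was 3.53% and 3.55% of that in krt4-high cells on M1 and M2, and that of anxa2a 1.82% and 1.75%. The scavenger receptor gene stab2, of sinusoid-like endothelium, differed in this, with 1.33 and 1.68 against 10.5 and 13.6 CPM (log2 fold change 2.94, SE 0.41, adjusted p = 0.0227). Its level was 147% and 340.3% of that in krt4-high cells. The part of skin RNA in these lists was not tested. In the list of lymphoid and thrombocyte genes 2 of 10 tested rose, fn1b and the thrombospondin gene thbs1b (10.1 and 9.13 against 48.7 and 48.1 CPM, log2 fold change 2.27, SE 0.18, adjusted p = 0.00818). Of the UMIs of thbs1b the 5 richest cells held 75.2% and 59.5% on M1 and M2, and both genes were at 19.4 to 25.8% of their level in krt4-high cells. In the list of neutrophil granule and protease genes 4 of 22 rose, among them arg2, an arginase (73.4 and 56.5 against 186 and 203 CPM, log2 fold change 1.53, SE 0.17, adjusted p = 0.0175). Of these genes timp2b, an inhibitor of metalloproteinases, was at 57.3 and 25.2 against 267 and 273 CPM (log2 fold change 2.66, SE 0.35, adjusted p = 0.0197), and the 5 richest cells held 75.4% and 77.0% of its UMIs on M1 and M2.

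Several large lists held few or no called genes, where 2.17% of all genes tested were called higher and 0.586% lower. At these shares few calls are expected in lists of this size, so the counts alone do not set these lists apart. Of 79 tested genes of ribosome assembly, 76 cytosolic ribosomal proteins, 66 mitochondrial ribosomal proteins, 36 proteasome subunits and 13 mitochondrially encoded genes, edgeR called none. At an unadjusted p under 0.05, 1 higher and 4 lower, 20 lower, 15 lower, 8 lower and 1 lower passed, in that order, and DESeq2 called 5 cytosolic ribosomal protein genes lower and none of the others. The medians ran from -0.38 for cytosolic ribosomal proteins to -0.16 for mitochondrially encoded genes. Without M1, 32 cytosolic ribosomal protein genes, 10 ribosome assembly genes and 5 mitochondrial ribosomal protein genes were called lower. Of 87 nuclear genes of oxidative phosphorylation 1 rose (cycsb) and 1 fell, atp5ia, a subunit of ATP synthase, at 99.5 and 119 CPM in siblings and 44.2 and 47.1 CPM in mutants (log2 fold change -1.31, SE 0.17, adjusted p = 0.0191). Of 62 genes of DNA replication and mitosis 1 rose, the mitotic kinase gene aurka (31.6 and 22.6 against 75.2 and 68.6 CPM, log2 fold change 1.35, SE 0.20, adjusted p = 0.0272).

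The change in mutants was last set against that of LY294002 in wild-type embryos. The LY294002 and control plates were all sorted on day 13 and share no plate with the mutants and siblings. The median cell held 8274 and 9551 UMIs on W1 and W2 and 6474 and 6284 on V1 and V2. Mitochondrially encoded genes took 10.2% and 10.1% of the counts of kept cells on W1 and W2 and 13.6% and 13.0% on V1 and V2. The part of depth and RNA quality in the number of calls was not tested. On these plates alone, 1 of 9946 genes passed between LY294002 and control (0.0101%), and 1619 had an unadjusted p under 0.05. The gene that passed was pvalb4, a parvalbumin of muscle, at 5.05 and 7.97 CPM in controls and 127 and 124 CPM after LY294002. The test of the difference between both changes called 135 of 12296 genes with a more positive change in mutants (1.1%) and 64 with a more negative one (0.52%), together 1.62%. Of the genes called between mutants and siblings, 97 of 272 tested of those higher and 29 of 74 of those lower were also called for this difference. Both tests used the same mutant and sibling plates, so this overlap is no independent check of the calls. Their number fell with the loss of most plates, to 27 and 11 without V1, 14 and 3 without V2, 33 and 7 without W1, 31 and 7 without W2, 46 and 14 without M2, 19 and 7 without S1 and 31 and 8 without S2, and was 195 and 113 without M1.

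Among these genes, sesn2 was at 20.2 and 16.3 CPM in controls and 5.36 and 5.50 CPM after LY294002, a change of -1.64 (SE 0.32) on the log2 scale, and its difference between the contrasts was 4.68 (SE 0.39, adjusted p = 0.00241). For psat1 the levels were 26.3 and 22.9 and 9.53 and 16 CPM, a change of -0.83 (SE 0.30), and the difference was 3.97 (SE 0.43, adjusted p = 0.00622). For MDP1 they were 16.2 and 10.3 and 6.55 and 10.5 CPM, a change of -0.52 (SE 0.40), with a difference of 4.51 (SE 0.39, adjusted p = 0.00264). All 3 stood lower after LY294002 in the mean and higher in mutants, although the change under LY294002 did not pass its own test for any of them. For each of the 3, both control plates also stood above both sibling plates, whose levels are given above, so the changes start from unlike levels. The genes of this paragraph were named for the largest differences between the changes, a choice that favours opposite signs. In the other direction, txnipa was at 81.9 and 66.7 CPM in controls and 110.2 and 85.1 CPM after LY294002, a change of 0.48 (SE 0.17), and its difference was -4.22 (SE 0.28, adjusted p = 0.00136). The differences of sesn2, psat1, MDP1 and txnipa were called with each of the 8 plates left out in turn. Those of fn1b, 6.42 (SE 0.82, adjusted p = 0.0110), of adm2a, a peptide hormone gene, 4.54 (SE 0.55, adjusted p = 0.00902), and of pdk2b, -4.25 (SE 0.57, adjusted p = 0.0122), were lost without at least 1 plate. This was also true of the monocarboxylate transporter gene slc16a12a, at -2.77 (SE 0.53, adjusted p = 0.0423), of nab1a, at -2.46 (SE 0.45, adjusted p = 0.0377), and of nrros, at -2.13 (SE 0.27, adjusted p = 0.0100).

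**Figure D5:**
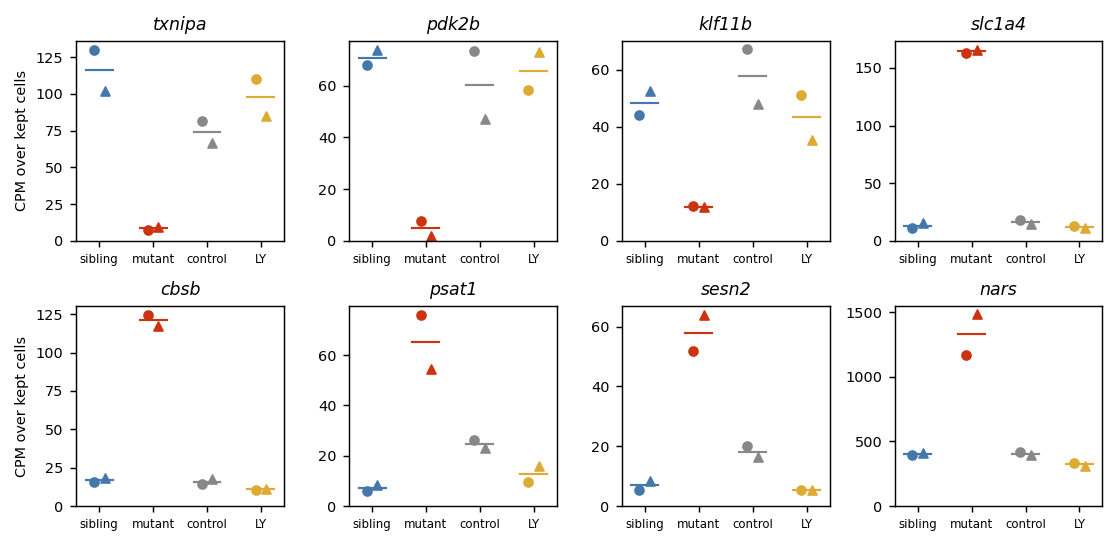
Level in CPM over all kept cells for 8 genes on the 8 CHT plates, in siblings, mutants, wild-type controls and LY294002-treated embryos (LY); circles and triangles are the plates of a group and lines their mean, and each axis starts at 0. The sibling, control and LY294002 plates lie in one range for slc1a4 and the mutant plates far above it, whereas txnipa was at 7.64 and 9.73 CPM in mutants and at 66.7 CPM or more on all other plates.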

How the data were processed

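Single cells sorted from the CHT were sequenced with SORT-seq on plates of 384 wells, and the values used are those of the 4 mutant and sibling plates and, for 1 comparison, the 4 LY294002 and control plates. The deposited values are estimated counts: the authors mapped reads to a Zv9 transcriptome (BWA is named in the submitters' processing notes, version not given in the sources used here), counted UMIs per gene and well and corrected them for barcode collisions, so they need not be whole numbers. Low wells were part of the tables and were filtered here (at least 1500 UMIs, krt4 under 1000 CPM). Spike-in rows stayed out of totals. The collision correction and the pooling of transcripts of a gene can change low values and those of near-identical copies.

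Counts were summed over the cells of a plate, rounded, and tested with edgeR 4.0.16 in R 4.3.3 (filterByExpr, TMM scaling, quasi-likelihood test, Benjamini-Hochberg adjustment over all genes tested, threshold 0.05). The standard error was taken from the F statistic (fold change on the log2 scale over the root of F). Levels are CPM over all genes. Cells were clustered by k-medoids on 1 minus Pearson correlation without mitochondrially encoded genes, in 5 clusters, and a class was tested with at least 20 cells on each plate. A marker counted as raised if it was higher in the cluster than in the other cells. The fixed mix of clusters was fitted with limma 3.58.1, with a pseudocount of 1 CPM. Shares were compared with an exact permutation test over all splits of the plates, 2 against 2, written in Python 3.11.15 with numpy 2.4.6. Wilson intervals were computed with statsmodels, and count matrices were handled with scipy 1.17.1. On simulated data with 12269 genes in the design of all cells, 27% of genes changed by 1 log2 unit and 98% of those changed by 2 were recovered, with 9 false calls of 134. The simulation gave every gene the same spread between plates (dispersion) and held no effect of sort day or pool. It changed only genes at 20 CPM or more, so its rates need not hold for the real counts.

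Genes named are the 12 called genes with the largest change each way at a mean of at least 20 CPM with plates that do not overlap, the 4 members of each of the 30 lists with the smallest p where they were called, and 5 genes each way within classes and for the difference from LY294002; further called members of a list were named after their values were seen. Some items that these rules cover, the targeted genes among them, are not reported here. The members, lists and tests were chosen with earlier results of these data known. Alternatives were DESeq2 1.42.0, other scalings, filters, cell limits and clusterings, and each plate left out. Promoter motifs, coordinates and the other plates of the study were not analysed here. Doublets were not called, since each well received 1 sorted cell, and wells that hold more than 1 cell were not tested for.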

Additional observations from a re-analysis of the deposited data

Results flagged for a closer look

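The change between mutants and siblings differed from the change between LY294002 and control for 135 genes in the positive direction and 64 in the negative direction, by the test of the difference itself over the 8 CHT plates (edgeR, adjusted p under 0.05). The differences, on the log2 scale, that had the largest size at a mean of at least 20 CPM were 6.42 for fn1b, 4.68 for sesn2, 4.54 for adm2a, 4.51 for MDP1 and 3.97 for psat1. In the negative direction they were -4.25 for pdk2b, -4.22 for txnipa, -2.77 for slc16a12a, -2.46 for nab1a and -2.13 for nrros. The mutant and sibling plates were sorted on days 8 and 9 and the others on day 13, so that the changes come from separate sorts.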

How the results depend on the processing

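No paired analysis was possible because the replicate numbers follow accession order and mark no shared animals or pools, and M1 and S2 are the only pair with the same sort days. Over all cells, where 274 genes were higher and 74 lower, the counts were 467 and 145 with DESeq2, 3 and 1 with sort day as a term, 458 and 180 with all 8 CHT plates in the fit, 1218 and 639 without a filter on low counts, 1241 and 372 without a limit on krt4, 540 and 161 without cluster 5, and 585 and 209 without the 5 cells that held most UMIs of a gene. The higher calls were 164 with cells thinned to 1500 UMIs and 444 without the 2% of cells with most UMIs. With krt4 under 100 CPM edgeR made 6 higher and 0 lower calls (1181 genes had an unadjusted p under 0.05), with 312, 218, 53 and 22 cells on S1, S2, M1 and M2. With 1 plate left out the counts ran from 131 to 956 higher and from 58 to 406 lower. For the difference from LY294002 they were 217 and 122 with DESeq2, 49 and 32 with thinned cells, 22 and 3 with krt4 under 100 CPM, 582 and 321 without the filter, 272 and 107 without a limit on krt4, and 14 to 195 and 3 to 113 with 1 plate left out. In cluster 1 they were 15 and 4 at 3000 UMIs or more, 6 and 0 with thinned cells (283 at an unadjusted p under 0.05) and 317 and 289 without the filter, with 44 lower by DESeq2, 104 higher at a mean of at least 20 CPM, and 126 to 157 and 81 to 104 with 1 plate left out. In cluster 2 they were 324 and 149 with DESeq2, 896 and 575 at 1000 UMIs or more, 877 and 494 at 3000 UMIs or more, 194 and 65 with thinned cells, and 0 to 762 and 0 to 436 with 1 plate left out. In clusters 3 and 4 they were 97 and 36 with DESeq2, 78 and 26 at 1000 UMIs or more, 79 and 27 at 3000 UMIs or more, 2 and 1 with thinned cells, 0 and 0 at a mean of at least 20 CPM (730 at an unadjusted p under 0.05, edgeR; DESeq2 was not run at this limit), 332 and 93 without the filter, and 7 to 636 and 4 to 234 with 1 plate left out. The share of clusters 3 and 4 turned its direction, from -0.70 percentage points to 12.8 with krt4 under 100 CPM, 2.1 with thinned cells, 0.72 with 7 clusters, 0.18 without the called genes and 3.67 without M2 (-5.08 to 3.67 with 1 plate left out). The other shares kept their direction under each alternative, with -28.7 to -14.8 and 11.3 to 32.0 percentage points for clusters 1 and 2 with 1 plate left out. Among named genes, ldlra turned to -0.14 with krt4 under 100 CPM, and aqp3a to 1.21 without a limit on krt4. Of 86 genes named over all cells, 1 lost its call without M1, 8 without M2, 28 without S1 and 10 without S2, and 83 with sort day as a term, 74 with krt4 under 100 CPM (where 6 kept it) and 24 with thinned cells. Between M1 and S2 alone, the log2 ratio of 33 of the 86 moved by more than its error. The causes were not tested.

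Limits: with 2 plates a group, in part on other sort days, a genotype effect cannot be fully told apart from one of sort day or pool. The plates of a group may come from the same pool of embryos, so their agreement does not decide this. Depth limits genes of few UMIs, above all on M1 with a median of 8566 UMIs a cell. The condition of the mutants, which by the study die at about the age sampled, was not assessed either. The alternatives with sort day as a term, without cluster 5, without the 5 richest cells and without the called genes were chosen after seeing the data, as was the joining of clusters 3 and 4.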
